A study of Mus musculus with 5 samples.

Results

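Hypoxia response, glycolysis and adrenomedullin genes were taken as a list of 38 genes, chosen by function and, for Adm, by its distance from total RNA in these data, of which 35 were measured by 79 probe sets annotated to 1 of them alone, out of 18194 genes with such a probe set on the array. Of the 38, Bnip3l (a mitochondrial protein that marks mitochondria for removal) is named but has no value, since its 3 probe sets are shared with its pseudogene. Eno1 (enolase) and Gpi1 (glucose phosphate isomerase) had no probe set annotated to them here. Gapdh was read from the array's own control probe sets, because the other 3 that name it are shared with pseudogenes. Where a gene had several, the set with the highest mean over the 5 arrays stands for it, and its other probe sets are given beside it. Of the 35 genes, 12 had 1 probe set and 23 had more, up to 5.

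When oxygen falls, the prolyl hydroxylases that mark the HIF alpha subunits for destruction slow down, and HIF dimers bind short ACGTG-containing elements and switch on their target genes. Those targets carry glucose into the cell, run glycolysis, keep pyruvate out of the mitochondria and signal to blood vessels. Several of these mRNAs, Vegfa and Slc2a1 (GLUT1) among them, are known as short-lived transcripts whose 3' ends bind regulatory proteins, and AUF1 is a protein that binds AU-rich sequences in such mRNAs.

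The RNA came from NIH/3T3 cells, an established mouse embryonic fibroblast line. All of the cells carried pBSwitch, which encodes a mifepristone-dependent activator, and the inducible vector pSLHGC-MYC-AUF1 p42 for myc-tagged AUF1, the p42 isoform, and they were a blasticidin-selected pool in which selection was done with mifepristone present. Ribonucleoprotein immunoprecipitates (RNP-IPs) were taken with anti-myc beads from 2 samples labelled as induced with 1 nM mifepristone for 24 h and from 2 labelled as not induced. The fifth array held total RNA, and no source used here says whether those cells were induced. Nothing given here says whether replicates were separate cultures, so p-values measure the spread between these arrays, whose small number limits the precision.

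The AUF1 gene itself, Hnrnpd, gave log2 values of 6.72 and 7.39 in the induced-labelled RNP-IPs, 11.35 and 11.85 in the uninduced-labelled ones and 10.60 in total RNA. That order is opposite to the one a gene expressed from an induced vector would have, and which part of Hnrnpd the vector and the probe sets share is not given. These probe sets alone cannot decide whether the labels are right. The groups are therefore called by their labels throughout (induced-labelled and uninduced-labelled RNP-IPs), and every direction below rests on those labels. Of 13 fibroblast markers 12 were above log2 6 on all arrays, while 4 of 4 endothelial markers, 4 of 4 neural markers and 5 of 6 epithelial markers were near background (under log2 5) on all arrays. Of 5 blood markers 3 were near background on all arrays, and the mean of the 5 was 4.49 in the induced-labelled RNP-IPs, 4.03 in the uninduced-labelled ones and 4.06 in total RNA, with Cd14 and Cd3e above background on at least 1 array. The part of that difference in the results below was not tested. Such low signals made up 70.4% of all values. RMA, the normalization used, sets the distributions of the arrays alike, so more of a transcript and less of the other RNAs in a precipitate cannot be told apart.

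Few genes of the list differed by 3-fold between the groups, and which ones did depended on the comparison. A call needed 3-fold or more together with an adjusted p under 0.5, the lenient threshold of the study's methods. At an adjusted p under 0.05 limma called no probe set in any of the 4 comparisons, although 2424 and 2412 probe sets had an unadjusted p under 0.05 in the higher and lower direction in the induced-labelled RNP-IPs against all 3 controls together. In that comparison 1 of 35 genes was called higher (Slc2a3) and 2 lower (Ndrg1, Pdk1), where 1.32% of all genes were called higher and 2.36% lower. Against the uninduced-labelled RNP-IPs alone, the induced-labelled ones had 2 genes called higher (Egln3, Slc2a3) and 1 lower (Ndrg1), beside 1.38% and 2.65% of all genes. These shares of the list, 2.86% and 5.71% in the first comparison and 5.71% and 2.86% in the second, rest on 1 or 2 genes each. Among the 6401 genes with a mean above log2 6, which 27 genes of the list share, 2.72% and 5.78% were called higher and lower in the first comparison (0 and 2 of the 27), and 2.94% and 6.36% in the second (1 and 1 of the 27).

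More genes of the list were called against total RNA. The induced-labelled RNP-IPs had 3 genes called higher than total RNA (Adm, Ddit4, Slc2a3) and 5 lower (Ndrg1, Pdk1, Slc2a1, Hk2, Tpi1), 8.57% and 14.3% of the list, beside 2.03% and 4.5% of all genes. The uninduced-labelled RNP-IPs had 2 called higher (Adm, Ddit4) and 3 lower (Pdk1, Slc16a1, Ldha), 5.71% and 8.57% of the list, beside 1.26% and 1.36% of all genes. Adm is on the list because of its distance from total RNA, so its counts here are no result. Without it, 2 of 34 genes (5.88%) were higher in the induced-labelled RNP-IPs and 1 of 34 (2.94%) in the uninduced-labelled ones. Among the genes above log2 6, 4.55% were called higher and 9.86% lower in the induced-labelled RNP-IPs (2 and 5 of the 27 genes of the list), and 3.03% and 2.56% in the uninduced-labelled ones (2 and 3 of the 27). The 2 higher ones were Adm and Ddit4 in both comparisons, so without Adm only Ddit4 remains. Without replicate 2 labelled uninduced, the genes called lower in the uninduced-labelled RNP-IPs numbered 557 of all genes, against 247 with it, while the list had 3 either way. Both comparisons rest on the same single total RNA array.

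**Figure D1:**
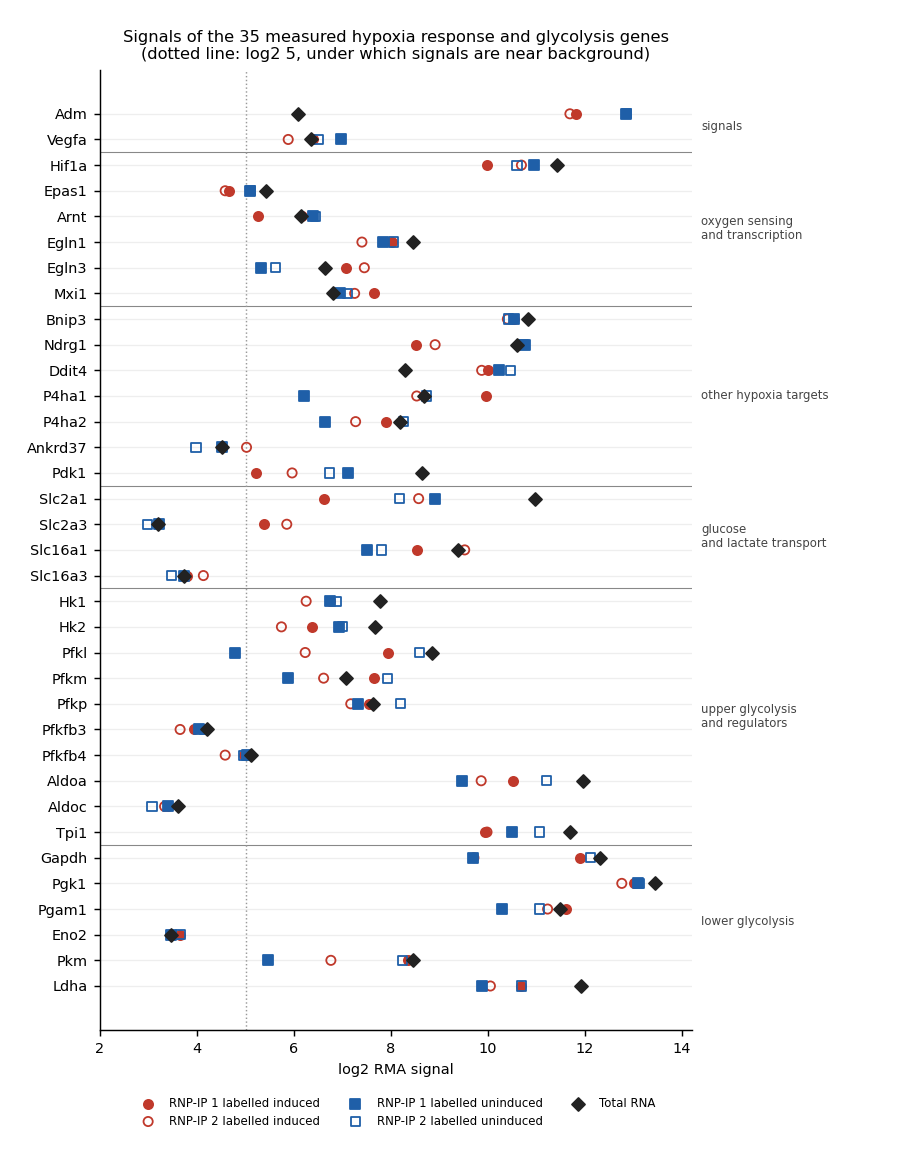
Log2 RMA signal (x axis) of the representative probe set of each of the 35 measured genes on each of the 5 arrays, grouped by role, with RNP-IPs labelled induced as circles, the uninduced-labelled ones as squares and total RNA as a diamond. Adm lies between 11.69 and 12.85 in the 4 RNP-IPs and at 6.08 in total RNA, and for 18 of 35 genes the total RNA array lies above all 4 RNP-IPs.

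Adm encodes adrenomedullin, a secreted vasodilator peptide made by hypoxic cells. Its log2 signal was 11.81 and 11.69 in the induced-labelled RNP-IPs, 12.84 and 12.85 in the uninduced-labelled ones and 6.08 in total RNA. All 4 precipitates lay far above total RNA, and the uninduced-labelled ones were the highest. The mean of the induced-labelled RNP-IPs was 5.67 above total RNA on the log2 scale, 50.8-fold, which ranked 3 among all genes, and that of the uninduced-labelled RNP-IPs was 6.76 above it, 108-fold, the highest difference of all 18194 genes. The induced-labelled RNP-IPs were 1.09 lower on the log2 scale than the uninduced-labelled ones, under the 3-fold threshold, without overlap of the arrays. All of these values are given as a description, since Adm was chosen for its value in the uninduced arrays.

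The second Adm probe set had signals of 6.80 and 6.37 in the induced-labelled RNP-IPs, 7.07 and 8.06 in the uninduced-labelled ones and 3.55 in total RNA. It held the same order of groups at a much lower level. Total RNA was not well above background on it, so with log2 5 as the floor it was at least 3-fold higher in the induced-labelled RNP-IPs and at least 5.93-fold higher in the uninduced-labelled ones. The name of the brighter set ends in x_at, the array maker's mark for probes that can also match other transcripts. Against the 3 controls together Adm had a log2 difference of 1.16 with an SE of 2.53, in a pooled group that holds both the highest and the lowest arrays. Vegfa, the growth factor of blood vessels, had signals of 6.40 and 5.88 in the induced-labelled RNP-IPs, 6.96 and 6.5 in the uninduced-labelled ones and 6.36 in total RNA. It was not called in any comparison, with log2 differences of -0.59 between the precipitates and, to total RNA, of -0.22 for the induced-labelled RNP-IPs and 0.37 for the uninduced-labelled ones.

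Among the genes of oxygen sensing and HIF transcription, 1 of 6 was called on its representative probe set, in 1 comparison, and a dimmer probe set of another (Egln1) was called in 2. Egln3 encodes a prolyl hydroxylase that marks HIF alpha subunits and is itself a HIF target. It had signals of 7.08 and 7.45 in the induced-labelled RNP-IPs, 5.31 and 5.61 in the uninduced-labelled ones and 6.64 in total RNA. The induced-labelled RNP-IPs lay highest, the uninduced-labelled ones lowest, and total RNA between them, with no overlap. The difference between the precipitates was 1.80 on the log2 scale (SE 0.20, 3.48-fold, adjusted p = 0.173, limma). The other probe set of Egln3 was near background and differed by -0.16, and averaging both ended the call. Part of the mouse Egln3 promoter holds the letters of the HIF element and is printed here because the gene was called between the precipitates. It lies at chr12:54204086-54204116 on the minus strand of GRCm38.p6 (RefSeq), upstream of the gene's start, with the motif in capitals.
Egln3: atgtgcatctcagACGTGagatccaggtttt

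Egln1, the main HIF prolyl hydroxylase, split between its probe sets. On the brighter one it had 8.02 and 7.40 in the induced-labelled RNP-IPs, 7.83 and 8.05 in the uninduced-labelled ones and 8.46 in total RNA, so the precipitates overlapped. The dimmer one had 6.34 and 5.71 in the induced-labelled RNP-IPs, 4.09 and 4.15 in the uninduced-labelled ones and 4.99 in total RNA, and there both arrays labelled induced were above the other 3. This dimmer set passed the call in both comparisons. Its log2 difference was 1.62 against the 3 controls (SE 0.39, adjusted p = 0.278, limma) and 1.91 against the uninduced-labelled RNP-IPs (SE 0.27, adjusted p = 0.207), where the dim arrays were not well above background and the fold is at least 2.04.

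Hif1a, the oxygen-regulated HIF subunit, had 9.98 and 10.69 in the induced-labelled RNP-IPs, 10.95 and 10.60 in the uninduced-labelled ones and 11.42 in total RNA. Total RNA was above every precipitate and the precipitates overlapped, and its difference of -0.44 between them was not called. A dimmer Hif1a probe set had 7.51 and 8.12 in the induced-labelled RNP-IPs, 9.70 and 9.0 in the uninduced-labelled ones and 9.24 in total RNA, so both arrays labelled induced were the lowest (-1.53 against the uninduced-labelled ones, adjusted p = 0.357, limma), under the 3-fold threshold. Epas1, the HIF-2 alpha subunit, had 4.66 and 4.58 in the induced-labelled RNP-IPs, 5.10 and 5.10 in the uninduced-labelled ones and 5.43 in total RNA, all close to background. Arnt, the shared partner of the alpha subunits, was at 5.25 and 6.17 in the induced-labelled RNP-IPs, against 6.40 and 6.44 in the uninduced-labelled RNP-IPs and 6.14 in total RNA, with the arrays labelled induced overlapping total RNA. Mxi1, a MAX partner that opposes MYC, was highest in the induced-labelled RNP-IPs at 7.65 and 7.25, against 6.95 and 7.10 in the uninduced-labelled ones and 6.80 in total RNA, but only by 0.50 on the log2 scale against the 3 controls (adjusted p = 0.422).

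Among the other hypoxia targets Ndrg1, Ddit4 and Pdk1 were called, each with its own pattern. Ndrg1 encodes a stress-response protein that rises in growth-arrested and hypoxic cells. It had signals of 8.51 and 8.91 in the induced-labelled RNP-IPs, 10.76 and 10.74 in the uninduced-labelled ones and 10.59 in total RNA. Both arrays labelled induced were well under the 3 controls, which lay within a narrow range. The difference was -1.99 on the log2 scale against the 3 controls (SE 0.15, 3.97-fold lower, adjusted p = 0.0813, limma), -2.04 against the uninduced-labelled RNP-IPs (SE 0.17, adjusted p = 0.15) and -1.88 against total RNA (SE 0.21, adjusted p = 0.137). The call rests on the brightest of 5 probe sets, whose name carries the same x_at mark as that of Adm. The other 4 differed by -1.28 to -0.34 from the 3 controls and were not called.

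Ddit4 encodes REDD1, an inhibitor of mTORC1 signalling that is switched on by hypoxia and other stress. Its signals were 10.00 and 9.87 in the induced-labelled RNP-IPs, 10.22 and 10.46 in the uninduced-labelled ones and 8.28 in total RNA. All 4 precipitates lay above total RNA and differed little among themselves. Compared with total RNA, the induced-labelled RNP-IPs were 1.65 higher on the log2 scale (SE 0.15, 3.14-fold, adjusted p = 0.122, limma), and the uninduced-labelled ones 2.06 higher (SE 0.15, 4.17-fold, adjusted p = 0.169). Between the precipitates the difference was -0.41 (adjusted p = 0.418). Apart from Adm, chosen for its distance from total RNA, only Ddit4 of the list was called above total RNA in both kinds of precipitate. The Ddit4 promoter stretch with the HIF element letters, at chr10:59951940-59951970 on the minus strand, is shown for this reason, and the window of Adm did not hold these letters.
Ddit4: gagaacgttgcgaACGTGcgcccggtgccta

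Pdk1 encodes pyruvate dehydrogenase kinase, which holds pyruvate back from the mitochondria. It had signals of 5.22 and 5.96 in the induced-labelled RNP-IPs, 7.12 and 6.73 in the uninduced-labelled ones and 8.64 in total RNA. The groups formed 3 steps without overlap, with total RNA at the top. The induced-labelled RNP-IPs were 3.05 lower than total RNA on the log2 scale (SE 0.43, 8.29-fold lower, adjusted p = 0.169, limma) and the uninduced-labelled ones 1.72 lower (SE 0.43, 3.29-fold lower, adjusted p = 0.388). Against the 3 controls the difference was -1.91 (SE 0.70, adjusted p = 0.478), a call that was lost when any 1 of the 5 arrays was left out, with differences of -2.29 to -1.54 without 1 RNP-IP and -1.33 without total RNA. The call of the uninduced-labelled RNP-IPs against total RNA was lost without replicate 2 of the uninduced-labelled ones (-1.52). The next brightest Pdk1 probe set had 5.70 and 5.93 in the induced-labelled RNP-IPs, 5.93 and 5.89 in the uninduced-labelled ones and 7.35 in total RNA, where total RNA stood above the precipitates but the precipitates did not differ by more than their own spread.

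Bnip3, a mitochondrial receptor for mitophagy, was nearly level, with 10.54 and 10.40 in the induced-labelled RNP-IPs, 10.54 and 10.43 in the uninduced-labelled ones and 10.82 in total RNA. P4ha1 and P4ha2 encode the catalytic subunits of collagen prolyl 4-hydroxylase. P4ha1 had 9.95 and 8.53 in the induced-labelled RNP-IPs, 6.20 and 8.74 in the uninduced-labelled ones and 8.69 in total RNA, and P4ha2 had 7.90 and 7.27 in the induced-labelled RNP-IPs, against 6.63 and 8.25 in the uninduced-labelled RNP-IPs and 8.18 in total RNA. In both genes replicate 1 labelled uninduced was far below replicate 2 of its own group, and neither gene was called. Ankrd37, an ankyrin repeat protein induced by hypoxia, stayed between 3.98 and 5.02 on all arrays, at or near background.

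Glucose and lactate transporters went different ways. Slc2a1 encodes GLUT1, the basal glucose transporter, and had signals of 6.62 and 8.57 in the induced-labelled RNP-IPs, 8.90 and 8.18 in the uninduced-labelled ones and 10.97 in total RNA. Total RNA was above every precipitate, and the precipitates overlapped. The induced-labelled RNP-IPs were 3.38 lower than total RNA on the log2 scale (SE 1.06, adjusted p = 0.37, limma), a call that was lost without either replicate labelled uninduced, at an unchanged difference and an adjusted p of 0.543. The uninduced-labelled ones were 2.43 lower and not called. The other Slc2a1 probe sets also placed total RNA on top. The second had 5.26 and 7.08 in the induced-labelled RNP-IPs, 7.03 and 6.69 in the uninduced-labelled ones and 10.10 in total RNA, and was called lower than total RNA in both kinds of precipitate (-3.93 with an adjusted p of 0.282 for the induced-labelled ones, -3.24 with an adjusted p of 0.442 for the uninduced-labelled ones). On the dimmest no precipitate was well above background, and total RNA, at 6.05, was at least 2.08-fold higher than either kind. The Slc2a1 promoter stretch with the HIF element letters, shown because all probe sets of this gene lay below total RNA, is at chr4:119108696-119108726 on the plus strand.
Slc2a1: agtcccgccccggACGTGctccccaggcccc

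Slc2a3 encodes GLUT3, a high-affinity glucose transporter best known from neurons. Its signals were 5.38 and 5.85 in the induced-labelled RNP-IPs, 3.22 and 2.97 in the uninduced-labelled ones and 3.19 in total RNA. Only the arrays labelled induced were above background. The measured difference to the 3 controls was 2.49 on the log2 scale (SE 0.18, adjusted p = 0.0774, limma), and with the controls raised to the floor of log2 5 it was at least 1.53-fold. A second probe set, with the x_at mark, repeated the pattern with 5.25 and 5.26 in the induced-labelled RNP-IPs, against 3.35 and 3.22 in the uninduced-labelled RNP-IPs and 3.43 in total RNA (1.92 against the 3 controls, SE 0.08, adjusted p = 0.0523, at least 1.19-fold over the floor). The remaining 2 probe sets of Slc2a3 were near background on every array, with differences of 0.11 and 0, and averaging all 4 ended the call. Against total RNA alone the difference was 2.43 (adjusted p = 0.138).

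Slc16a3 (MCT4), the lactate exporter of glycolytic cells, was near background on all arrays, from 3.48 to 4.13. Slc16a1 encodes MCT1, which carries lactate and pyruvate across the membrane. On its brighter probe set it had 8.54 and 9.52 in the induced-labelled RNP-IPs, 7.51 and 7.81 in the uninduced-labelled ones and 9.39 in total RNA. The uninduced-labelled ones were the lowest, while the arrays labelled induced spanned total RNA and lay above both labelled uninduced, by 1.37 on the log2 scale (SE 0.43, 2.58-fold, adjusted p = 0.442, limma), short of 3-fold. The uninduced-labelled RNP-IPs were 1.73 lower than total RNA on the log2 scale (SE 0.52, 3.33-fold lower, adjusted p = 0.454, limma), a call that was lost without either replicate labelled uninduced (-1.88 to -1.58). The second Slc16a1 probe set had 6.16 and 7.73 in the induced-labelled RNP-IPs, 3.35 and 3.11 in the uninduced-labelled ones and 3.66 in total RNA. Here the arrays labelled induced were alone above background, by a measured 3.57 on the log2 scale against the 3 controls (SE 0.54, adjusted p = 0.16), which is at least 3.85-fold over the floor. For Slc16a1 the promoter stretch with the motif, shown because 1 probe set was called higher in the induced-labelled RNP-IPs and the other was not, is at chr3:104638452-104638482 on the plus strand.
Slc16a1: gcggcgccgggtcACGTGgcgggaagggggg

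**Figure D2:**
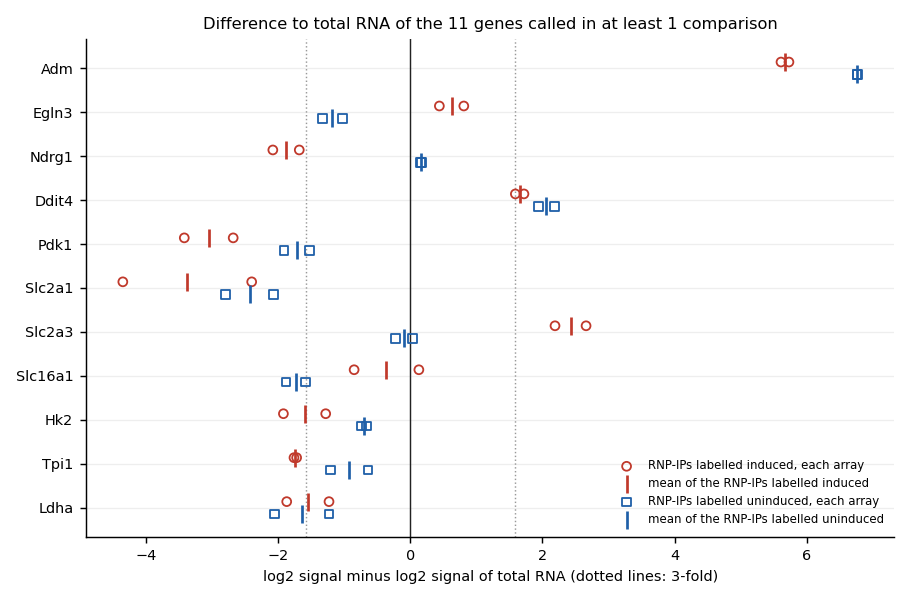
Log2 signal minus the log2 signal of the single total RNA array (x axis) for the 11 genes called in at least 1 comparison, with circles for the induced-labelled RNP-IPs, squares for the uninduced-labelled ones and vertical ticks for group means. Adm and Ddit4 lie to the right for all 4 precipitates, Pdk1, Slc2a1, Hk2, Tpi1 and Ldha to the left, and Slc2a3 to the right for the induced-labelled RNP-IPs alone.

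Glycolytic enzymes of the list lay mostly below total RNA in the precipitates. Of the 16 measured enzymes and regulators of glycolysis, 14 had a lower mean than total RNA in the induced-labelled RNP-IPs and 14 in the uninduced-labelled ones, where 45.3% and 49.6% of all genes did. Among genes with a mean above log2 6 the numbers were 11 of 12 and 11 of 12, where 58.3% and 55% of such genes did, with medians of -1.40 and -0.95 on the log2 scale against -0.19 and -0.09. Total RNA was above all 4 precipitates for 12 of 16, and for 18 of the 35 genes of the list. Of all genes 21.3% showed this order. Among those above log2 6 it was 9 of 12 and 14 of 27, beside 30% of all such genes. Only 3 of these 16 passed a call, Hk2, Tpi1 and Ldha, so the counts describe the position of a single total RNA array. They were 12 of 16 when replicate 1 labelled induced and replicate 2 labelled uninduced were taken alone. With the other 2 precipitates, which had low signal at the 5' ends of the Gapdh and beta-actin control mRNAs (given below), they were 15 of 16. Of all genes 30.2% and 28% showed these orders, and of those above log2 6 it was 39.6% and 39.8%, beside 9 and 12 of the 12. The medians above mix both pairs of arrays, whose distances to total RNA differed for several enzymes. Gapdh was at -0.43 and -0.21 in the first pair (induced-labelled array first) and at -2.61 and -2.62 in the other. Pkm was at -0.09 and -0.22, against -1.69 and -2.99. Some moved little, as Pgk1 with -0.44 and -0.31, against -0.69 and -0.34.

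Hk2 encodes the hypoxia-inducible hexokinase, the first enzyme of glycolysis. It had signals of 6.38 and 5.74 in the induced-labelled RNP-IPs, 6.92 and 7.0 in the uninduced-labelled ones and 7.66 in total RNA. The 3 groups did not overlap, with total RNA highest and the induced-labelled ones lowest. The induced-labelled RNP-IPs were 1.60 lower than total RNA on the log2 scale (SE 0.33, 3.04-fold lower, adjusted p = 0.246, limma), just past the 3-fold threshold, and without replicate 2 labelled induced the difference was -1.28 and the call was lost. Hk1, the constitutive hexokinase, had 6.75 and 6.25 in the induced-labelled RNP-IPs, 6.75 and 6.88 in the uninduced-labelled ones and 7.78 in total RNA and was not called. Tpi1 encodes triosephosphate isomerase, which interconverts the sugars made by aldolase. It had 9.94 and 9.98 in the induced-labelled RNP-IPs, 10.49 and 11.06 in the uninduced-labelled ones and 11.70 in total RNA. The induced-labelled ones were the lowest, 1.74 under total RNA on the log2 scale (SE 0.30, 3.35-fold lower, adjusted p = 0.202). Its other 2 probe sets lay 1.69 and 1.77 lower than total RNA but were not called (adjusted p = 0.555 and 0.694, limma) and overlapped between the precipitates.

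Ldha encodes the lactate dehydrogenase subunit that turns pyruvate into lactate. It had signals of 10.69 and 10.05 in the induced-labelled RNP-IPs, 9.87 and 10.69 in the uninduced-labelled ones and 11.92 in total RNA. The precipitates overlapped and all lay under total RNA. The induced-labelled RNP-IPs were 1.55 lower than it on the log2 scale (adjusted p = 0.401, limma), short of 3-fold. Those labelled uninduced were 1.64 lower (SE 0.53, 3.12-fold, adjusted p = 0.476), a call lost without either replicate labelled induced (adjusted p = 0.596 each), and without replicate 1 labelled uninduced, where the difference was -1.23. The Ldha promoter held the motif at several places, shown because Ldha was the enzyme of lower glycolysis that was called. A stretch close to the gene's start is at chr7:46845744-46845774 on the plus strand. Its last bases, CACGT, are a further site with the motif on the other strand and are left in lower case.
Ldha: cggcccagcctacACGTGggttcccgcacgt

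Pgk1, phosphoglycerate kinase, an ATP-making step, had 13.01 and 12.76 in the induced-labelled RNP-IPs, 13.10 and 13.13 in the uninduced-labelled ones and 13.44 in total RNA. The order was the same as for Hk2 but the distances were small (-0.56 and -0.33 to total RNA). Pgam1, phosphoglycerate mutase, had 11.61 and 11.23 in the induced-labelled RNP-IPs, 10.28 and 11.06 in the uninduced-labelled ones and 11.49 in total RNA. The enzyme regulators Pfkfb3 and Pfkfb4, which set the level of an activator of phosphofructokinase, were at 3.65 to 4.20 and at 4.58 to 5.11, and the tissue-specific aldolase and enolase genes Aldoc and Eno2 at 3.07 to 3.60 and 3.46 to 3.66. None of these 4 had a signal far enough above background for a comparison.

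**Figure D3:**
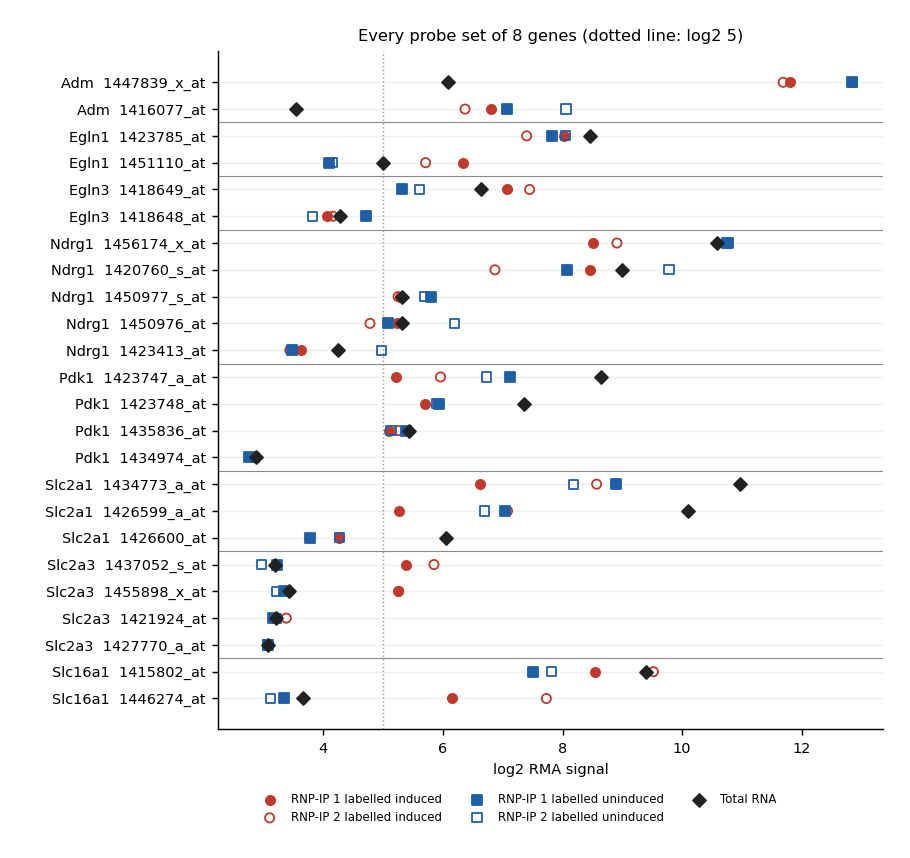
Log2 RMA signal (x axis) of every probe set of Adm, Egln1, Egln3, Ndrg1, Pdk1, Slc2a1, Slc2a3 and Slc16a1 on the 5 arrays, with symbols for the induced-labelled RNP-IPs, the uninduced-labelled ones and total RNA. Both Adm probe sets and all 3 Slc2a1 probe sets keep their order against total RNA, while the dimmer probe sets of Slc16a1 and Egln1 are above all 3 controls in both arrays labelled induced and the brighter probe set of the same gene is not.

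Several glycolytic enzymes differed more between the replicates of a group than between the groups. Replicate 2 labelled induced and replicate 1 labelled uninduced had low signals at the 5' ends of the control mRNAs. The Gapdh 5' control had 8.18 and 4.24 in the induced-labelled RNP-IPs, 3.65 and 7.81 in the uninduced-labelled ones and 6.93 in total RNA, and the middle control 10.55 and 7.21 in the induced-labelled RNP-IPs, against 5.59 and 10.36 in the uninduced-labelled ones and 10.64 in total RNA. In both controls those 2 arrays were the lowest. The 3' control, which represents Gapdh, a dehydrogenase of glycolysis often used as a reference gene, had 11.90 and 9.71 in the induced-labelled RNP-IPs, 9.70 and 12.11 in the uninduced-labelled ones and 12.32 in total RNA. The beta-actin 5' control split in the same way, with 11.35 and 7.17 in the induced-labelled RNP-IPs, against 5.83 and 9.66 in the uninduced-labelled RNP-IPs and 8.50 in total RNA. The 3' control of 18S rRNA had 12.00 and 9.92 in the induced-labelled RNP-IPs, 7.79 and 11.16 in the uninduced-labelled ones and 9.35 in total RNA. As with the Gapdh 3' control, the lower signal of those 2 precipitates was thus not confined to 5' ends.

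**Figure D4:**
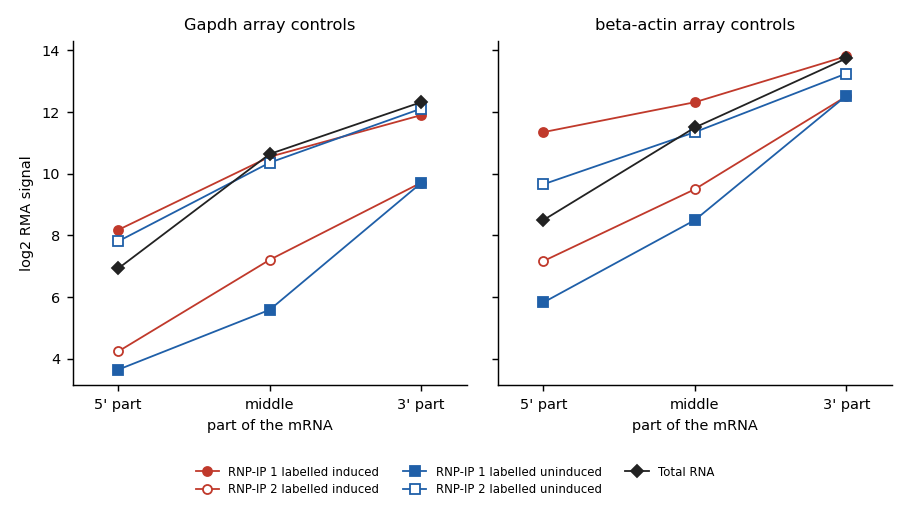
Log2 RMA signal (y axis) of the array's control probe sets for the 5' part, middle and 3' part of the Gapdh and beta-actin mRNAs (x axis), 1 line per array. Replicate 2 labelled induced and replicate 1 labelled uninduced fall to 4.24 and 3.65 at the 5' part of Gapdh, against 8.18 and 7.81 in the other replicates of their groups.

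The same 2 arrays were both below the other 2 precipitates for 8 of the 16 glycolytic enzymes and regulators. They were so for 11 of the 35 genes of the list, beside 9.27% of all genes. Among those above log2 6 it was 7 of 12 and 10 of 27, beside 15.6% of all such genes. Pfkl, the liver-type phosphofructokinase subunit, had 7.93 and 6.23 in the induced-labelled RNP-IPs, 4.79 and 8.59 in the uninduced-labelled ones and 8.85 in total RNA. Pkm, pyruvate kinase, had 8.36 and 6.76 in the induced-labelled RNP-IPs, 5.46 and 8.23 in the uninduced-labelled ones and 8.45 in total RNA. In both genes the replicates of each group lay farther apart than the means of the induced-labelled and uninduced-labelled RNP-IPs. Aldoa, aldolase, had 10.51 and 9.86 in the induced-labelled RNP-IPs, 9.47 and 11.20 in the uninduced-labelled ones and 11.97 in total RNA, and a dimmer probe set had 8.30 and 7.13 in the induced-labelled RNP-IPs, against 5.0 and 9.09 in the uninduced-labelled RNP-IPs and 9.37 in total RNA. Pfkm, the muscle-type subunit, and Pfkp, the platelet-type subunit, had the same 2 arrays lowest among the precipitates, with 7.64 and 6.61 in the induced-labelled RNP-IPs, 5.87 and 7.92 in the uninduced-labelled ones and 7.08 in total RNA for Pfkm. For Pfkp the signals were 7.54 and 7.17 in the induced-labelled RNP-IPs, 7.31 and 8.19 in the uninduced-labelled ones and 7.62 in total RNA. None of these 5 enzymes was called in any comparison. The part of this array property in the differences to total RNA was not tested. Adm, Ddit4, Ndrg1, Egln3 and Bnip3 differed by at most 0.21 on the log2 scale between the mean of those 2 arrays and that of the other 2 precipitates. For the other called genes the mean of those 2 arrays minus that of the other 2 was 1.34 for Slc2a1, 0.56 for Pdk1, 0.36 for Slc2a3, 0.34 for Slc16a1, -0.27 for Tpi1, -0.36 for Hk2 and -0.73 for Ldha.

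Related genes outside the list were read in the same comparisons. Of 60 other hypoxia genes 56 were measured. In the induced-labelled RNP-IPs against the 3 controls their median was -0.10 on the log2 scale, where that of all genes was 0. Beside 1.32% of all genes called higher and 2.36% lower, none of the 56 was called higher and 1 lower. That gene was Ccn2, a matricellular growth factor, which had 9.62 and 10.22 in the induced-labelled RNP-IPs, 11.76 and 12.22 in the uninduced-labelled ones and 13.49 in total RNA (-2.57, adjusted p = 0.278, limma). Against total RNA, 1 was called higher and 4 lower in the induced-labelled RNP-IPs, beside 2.03% and 4.5% of all genes. In the uninduced-labelled ones 2 were called higher and 2 lower, beside 1.26% and 1.36% of all genes. Ccng2, a cyclin of arrested cells, was among the higher ones, with 10.43 and 11.05 in the induced-labelled RNP-IPs, 11.84 and 11.31 in the uninduced-labelled ones and 8.78 in total RNA. Tfrc, the transferrin receptor, was on the lower side with 7.61 and 7.61 in the induced-labelled RNP-IPs, against 7.23 and 7.27 in the uninduced-labelled RNP-IPs and 10.03 in total RNA.

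Of 54 other genes of glycolysis and pyruvate metabolism 50 were measured. In the induced-labelled RNP-IPs against the 3 controls 1 was called higher and none lower, beside 1.32% and 2.36% of all genes. The called gene was Rpia, an isomerase of the pentose phosphate pathway. It had 9.68 and 10.15 in the induced-labelled RNP-IPs, 8.45 and 8.53 in the uninduced-labelled ones and 7.57 in total RNA, a difference of 1.74 on the log2 scale (adjusted p = 0.254, limma). Bsg, the chaperone of the lactate transporters, was called against the uninduced-labelled RNP-IPs alone (2.50, adjusted p = 0.459, limma). It had 8.60 and 7.28 in the induced-labelled ones, 4.73 and 6.16 in the uninduced-labelled ones and 6.91 in total RNA. The call was lost without replicate 1 labelled uninduced, which was near background. Against total RNA the median of the 50 genes was 0.03 on the log2 scale in the induced-labelled RNP-IPs, with 1 called higher and none lower. In the uninduced-labelled ones it was -0.02, with none called higher and 1 lower. Of all genes 2.03% and 4.5% were called higher and lower in the former, and 1.26% and 1.36% in the latter. Of the 50, 34 were above background on at least 1 array. Of 12 genes of the adrenomedullin receptors and related peptides 11 were measured and 5 were above background on at least 1 array. None was called in either comparison with total RNA. Mme, a membrane peptidase that cleaves small peptides, was called lower in the induced-labelled RNP-IPs than in the 3 controls (-1.64, adjusted p = 0.392, limma). It had 5.85 and 6.85 in the induced-labelled RNP-IPs, against 8.55 and 8.06 in the uninduced-labelled RNP-IPs and 7.35 in total RNA. This call was lost after quantile normalization and with the mean over probe sets.

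The letters of the HIF element were searched in the promoters. ACGTG on either strand stood in the RefSeq windows (250 bases before to 50 after each start, GRCm38.p6) of 24 of 34 genes, 70.6%, against 21.8% of all genes and 23.2% of protein-coding genes, with a median GC content of 62.7% in the windows of the list against 56.3% in those of protein-coding genes. The palindrome CACGTG holds the motif on both strands and counts once. A gene counted when any of its windows held the motif, so genes with more windows had more places for it. The list had 50 windows for the 34 genes, and the 17491 protein-coding genes had 21262. The 34 include Eno1 and Gpi1, which had no value on the arrays. All 3 transporters with a window held it, as did 4 of 5 genes of oxygen sensing and 5 of 6 other hypoxia targets, 1 of 2 signals, and 6 of 11 and 5 of 7 genes of upper and lower glycolysis. Many of these genes were listed because they are known HIF targets, so the share describes the list. Pdk1 and Adm had windows without it, and Ndrg1 and Slc2a3 had no window.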

How the data were processed

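RNA of 5 samples was hybridized to Affymetrix Mouse 430 2.0 arrays after amplification. The authors applied RMA to the scans, and the deposited table holds 1 log2 value per array for each of 45101 probe sets (64 are controls), used as it stands. No source used here gives the version of RMA. Presence calls were not used here. The values ran from 2.32 to 14.86, with array medians of 3.77 to 3.83.

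Gene names came from the platform annotation (34958 probe sets with 1 gene, 932 with several, 9211 with none). limma 3.58.1 in R 4.3.3 (lmFit, eBayes) was fitted to all probe sets, with 2 RNP-IPs labelled induced against 3 controls and, in a fit with 3 groups, for the other comparisons, where total RNA, with 1 array, was taken to vary as the RNP-IPs do. Residual degrees of freedom were 3 and 2. Benjamini-Hochberg adjustment ran over the whole array, and the scripts were tested on simulated data. Members and lists were chosen with earlier results of these data known. Values per array are given for every called member, Adm, Gapdh and the members with the largest differences in each role, and for some others chosen after their values were seen. Replicate numbers did not pair the arrays, as the closing section shows. Alternatives changed the probe set of a gene, scaling, filter, threshold, eBayes trend, block and arrays left out. Promoter windows came from RefSeq.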

Additional observations from a re-analysis of the deposited data

How the results depend on the processing

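With the values as deposited and all probe sets, no call held at an adjusted p under 0.05. There, 0 genes of the list were called in each of the 4 comparisons. Against the 3 controls Ndrg1 had an adjusted p of 0.0322 (limma) under a filter at log2 6. After quantile normalization Ndrg1 and Slc2a3 each had 0.0492 (limma). The induced-labelled RNP-IPs against the 3 controls gave 3 genes, and 5 when each gene took its largest-fold probe set, 1 with the mean over probe sets, 6 at a fold of at least 2, and 2 to 3 with 1 array left out. Against the uninduced-labelled ones they gave 3, and 5, 1 and 6 under the same settings, and 3 to 5 with 1 RNP-IP left out, the 5 without replicate 2 labelled induced. The uninduced-labelled RNP-IPs against total RNA gave 5, and 3 to 5 with 1 RNP-IP left out, the 3 without replicate 1 labelled uninduced. The induced-labelled ones against total RNA gave 8, and 5 with the mean over probe sets, with 7 to 9 when 1 RNP-IP was left out. The difference of Adm against the 3 controls, 1.16 and not called, was -1.09 without the total RNA array, which either block also leaves out. Slc2a3 was not tested under a filter at log2 6. Over all genes, the split of calls against total RNA in the induced-labelled RNP-IPs was 369 higher and 819 lower, and 496 and 652 after quantile normalization. Together these calls numbered 1188, and 550 with the mean over probe sets. Against the uninduced-labelled ones 733 of all genes were called, and 1061 with the largest-fold probe set, 301 with the mean and 1583 at a fold of at least 2. With the largest-fold probe set 997 were called against the 3 controls. Calls over all genes against the 3 controls numbered 670, and 258 with the mean over probe sets, 374 without replicate 2 labelled uninduced and 1454 at a fold of at least 2.

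Deviations of same-numbered RNP-IPs from their group means correlated at -0.50, so the numbers do not pair the arrays. The block fits used the 4 RNP-IPs alone, without total RNA, so they compare the induced-labelled with the uninduced-labelled ones only. With the replicate number as a block 3 genes of the list and 304 of all genes were called. The crossed pairing, chosen after seeing the data, gave 4 and 825. Leaving out the 2 arrays of low 5' signal, also chosen after seeing the data, gave 2 and 696 against the remaining controls. Some single calls not described beside their gene were lost as well. That of Pdk1 against the 3 controls was lost with either block (-1.33, the difference without total RNA) and without the 2 arrays of low 5' signal (-2.46). That of Hk2 was lost after quantile normalization (-1.34) and that of Slc16a1 when the gene took its largest-fold probe set (-0.43). Those of Ndrg1, Pdk1 and Slc16a1 were lost with the mean over probe sets. Signals under log2 5 give bounds only, and 1 total RNA array gives no spread of its own.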
